A study of Mus musculus with 4 samples.

Results

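Stimulated mouse cells lacking Yap were set against stimulated wild-type (WT) cells, which is 1 RNA-seq library against 1, or 2 of the 4 libraries of the series. They are the libraries whose titles give the genotype as YKO or WT and the state as stim, with the number 24, which carries no unit. The other 2 libraries, unstimulated WT and unstimulated Yap KO, were used only to set the genotype difference of the unstimulated state beside that of the stimulated state. The source label of every library is spleen and lymph node, and the RNA was extracted from cell culture. All libraries carry the replicate number 1. The cell type, the stimulus, how many animals or cultures were used, the strain and the way Yap was deleted are not stated in the labels. Genotype therefore cannot be told apart from the cell source, the culture or the library, and every difference below is one between these 2 libraries.

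YAP, encoded by Yap1, is a transcriptional coactivator that the Hippo kinase cascade (MST and LATS kinases) holds out of the nucleus, and it acts on DNA through the TEAD factors. In T cells, Hippo kinases are better known than YAP itself, which is made mainly after activation. Activated T cells secrete cytokines and chemokines, respond to interferons through STAT and IRF factors, and raise glycolysis together with genes driven by the hypoxia-inducible factor.

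The stimulated WT library held 20976343 reads in genes and the stimulated Yap KO library 19935523. Differences are log2 ratios of Yap KO over WT after scaling by library (TMM, with 2 counts added before the logarithm), given with a 95% interval that covers counting error only. A gene was tested where the 2 libraries together held at least 20 reads, and was called where the ratio was at least 2-fold and the interval excluded no difference. Some genes passed this minimum only through the library in which they were higher, so counts of calls and list medians can lean that way. Levels (CPM) are counts scaled to the library's reads in genes multiplied by its TMM factor. In bulk RNA, fewer cells of a kind and less RNA per cell cannot be told apart.

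Of 14378 tested genes, 460 (3.2%) were called higher in stimulated Yap KO cells and 588 (4.09%) lower. The median ratio of all tested genes was 0.02. Most calls were of weakly expressed genes, 394 of the higher and 514 of the lower ones averaging under 10 CPM. Among the 8789 genes averaging at least 10 CPM, 66 were called higher (0.751%) and 74 lower (0.842%), and the ratios ran from -0.46 at the 5th percentile to 0.49 at the 95th. The intervals of 60.6% of these better-read genes excluded no difference, so at this depth the interval alone would pick out most of them. The 2-fold limit does most of the selection. In the unstimulated libraries 4.36% of 15163 tested genes were called higher and 4.05% lower by the same rule.

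**Figure D1:**
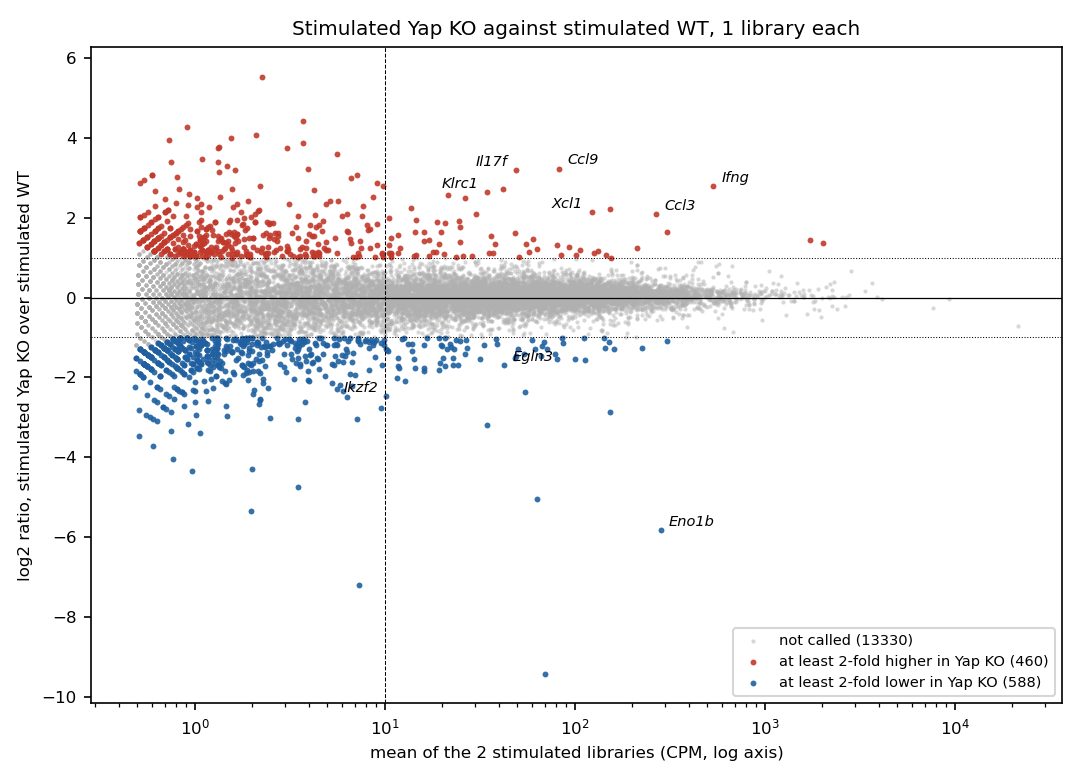
Log2 ratio of stimulated Yap KO over stimulated WT (vertical axis) against the mean level of the 2 libraries in CPM (horizontal log axis) for 14378 tested genes, with 460 called higher in red and 588 called lower in blue. Dotted lines mark a 2-fold ratio and the dashed line 10 CPM. Well-read genes lie close to 0, and Ccl9, Il17f, Ifng and Klrc1 stand above them, while Eno1b stands far below at -5.82.

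The targeted gene did not check the labels. Yap1 had 3 reads in stimulated WT and 2 in stimulated Yap KO cells, with exact 95% Poisson upper limits of 8.77 and 7.22 reads. In the unstimulated libraries it had 1 and 0 reads. Its paralog Wwtr1, which encodes TAZ, had 1 and 0 stimulated reads. The TEAD genes were as scarce: Tead1 had 3 and 5 reads, Tead2 3 and 8, Tead3 6 and 0, and Tead4 0 in both. None of these genes reached 20 reads over the 2 stimulated libraries, and no fold is given for them. Within 10 Mb of Yap1 on chromosome 9, 42 genes were tested, 2 of them were called higher, Gm10709 and Endod1, and 0 lower. Over all tested genes 3.2% were called higher and 4.09% lower, so 2 of 42 lies near the general share.

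Genes of the Hippo cascade that were read well differed little. Of 37 listed components 25 were tested, 1 was called higher and 0 lower, and the median ratio was 0.08 beside 0.02 over all genes. The 1 of 25 called higher lies near the 3.2% called higher over all tested genes. Stk4, the kinase MST1, stood at 0.44, Lats1 at 0.27 and the adaptor Mob1b at 0.32. The called gene was Ajuba, a LIM protein that binds LATS kinases, with 11 WT and 25 Yap KO reads and a ratio of 1.15 (0.22 to 2.46). Of 34 genes listed as YAP/TEAD targets in other tissues only 16 reached 20 reads, of which 3 were called higher and 1 lower, with a median of 0.17. Ccn1, a secreted matrix protein and one of the best known YAP targets, had 2 reads in WT and 50 in Yap KO cells, a ratio of 3.78 (2.82 to 7.84) in favour of the knockout. It reached the minimum of 20 reads only through the Yap KO library. No read of Ccn1 was found in either unstimulated library. Ccn2, the other classical target of that family, had 0 reads in both stimulated libraries. Nt5e, the ectonucleotidase CD73, had 73 and 149 reads and a ratio of 1.11 (0.72 to 1.56). Gadd45a, a stress-response gene, had 160 and 72 reads and a ratio of -1.03 (-1.47 to -0.64), and 19.1% of its exon bases lie opposite another gene. The Yap target list thus held calls in both directions.

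Cytokine genes made up much of the upper end. Of 37 listed, 30 were tested, 11 were called higher and 0 lower, with a median ratio of 0.73. Summed, they stood at 1073 CPM in the WT and 2263 CPM in the Yap KO library. Ifng, the interferon of activated T and NK cells, had 2779 reads in WT (135 CPM) and 17983 in Yap KO cells (937 CPM). Its ratio was 2.80 (2.74 to 2.86), which is 6.96-fold, against 0.61 (0.28 to 0.96) in the unstimulated libraries, where it had 114 and 203 reads. Il2, a growth factor that T cells make for themselves, had 228 and 1394 reads, a ratio of 2.71 (2.52 to 2.93). Il3, a haematopoietic growth factor, stood at 7.94 and 45.0 CPM, a ratio of 2.49 (2.26 to 2.75). Csf2, which encodes GM-CSF, had 30 and 247 reads and a ratio of 3.06 (2.60 to 3.75), with 12% of its exon bases opposite Gm12223. Il2, Il3 and Csf2 each had at most 8 reads in any unstimulated library, too few to compare the genotypes before stimulation.

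The interleukin 17 pair behaved in the same way. Il17f had 199 reads in WT and 1699 in Yap KO cells, 9.63 and 88.6 CPM, and a ratio of 3.19 (2.99 to 3.42). Il17a had 44 and 310 reads, 2.13 and 16.2 CPM, and a ratio of 2.87 (2.46 to 3.41). Il22, a cytokine of the same lymphocytes, had 10 and 40 reads and a ratio of 1.90 (1.08 to 3.27). All 3 had at most 4 reads in either unstimulated library.

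Ligands of the tumour necrosis factor family were also among the called genes. Tnfsf4, the OX40 ligand, stood at 10.3 and 38.8 CPM, a ratio of 1.91 (1.70 to 2.14). Fasl, the death receptor ligand, stood at 31.2 and 79.5 CPM (1.35, 1.22 to 1.49), and Tnfsf11, which encodes RANKL, at 46.4 and 115 CPM (1.31). Cd70, the ligand of CD27, had only 2 and 29 reads. Tnf itself was not called, at 0.87 (0.71 to 1.05), nor was Il21 at 0.78. Some listed cytokines had ratios below 0 without being called, including Ltb, lymphotoxin beta, at -0.67 and Cd40lg at -0.43. The difference was therefore shared by many cytokine genes but not by all of those tested.

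Chemokine ligands gave the largest share of calls among secreted factors, 8 of 10 tested (15 listed), with 0 called lower and a median of 1.43. Together they reached 348 CPM in the WT library against 1312 CPM in the other. Ccl4 and Ccl3, inflammatory chemokines, stood at 149 and 465 CPM (ratio 1.64, 1.58 to 1.70) and at 102 and 436 CPM (2.10, 2.03 to 2.17). Ccl9, a chemokine for myeloid cells, had the largest ratio of the protein-coding genes averaging 10 CPM or more: 15.9 CPM against 150 CPM, a ratio of 3.23 (3.07 to 3.41). Xcl1, which draws cross-presenting dendritic cells, stood at 45.4 and 201 CPM, a ratio of 2.14 (2.04 to 2.25), and 18.7% of its exon bases lie opposite Gm20743. Ccl1 had 5 and 139 reads, a ratio of 4.42 (3.65 to 6.55). Ccl5 stood at 6.10 and 13.2 CPM, a ratio of 1.11 (0.80 to 1.44), and Ccl22 at 11.2 and 24.7 CPM, a ratio of 1.13 (0.91 to 1.37). Before stimulation 3 of 8 tested ligands were called higher, among them Xcl1 at 1.93 and Ccl5 at 1.78, and 1 was called lower. The one listed chemokine with a ratio below 0 was Cxcl10, which interferons induce, at -0.94 (-1.24 to -0.67) from 314 and 151 reads.

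**Figure D2:**
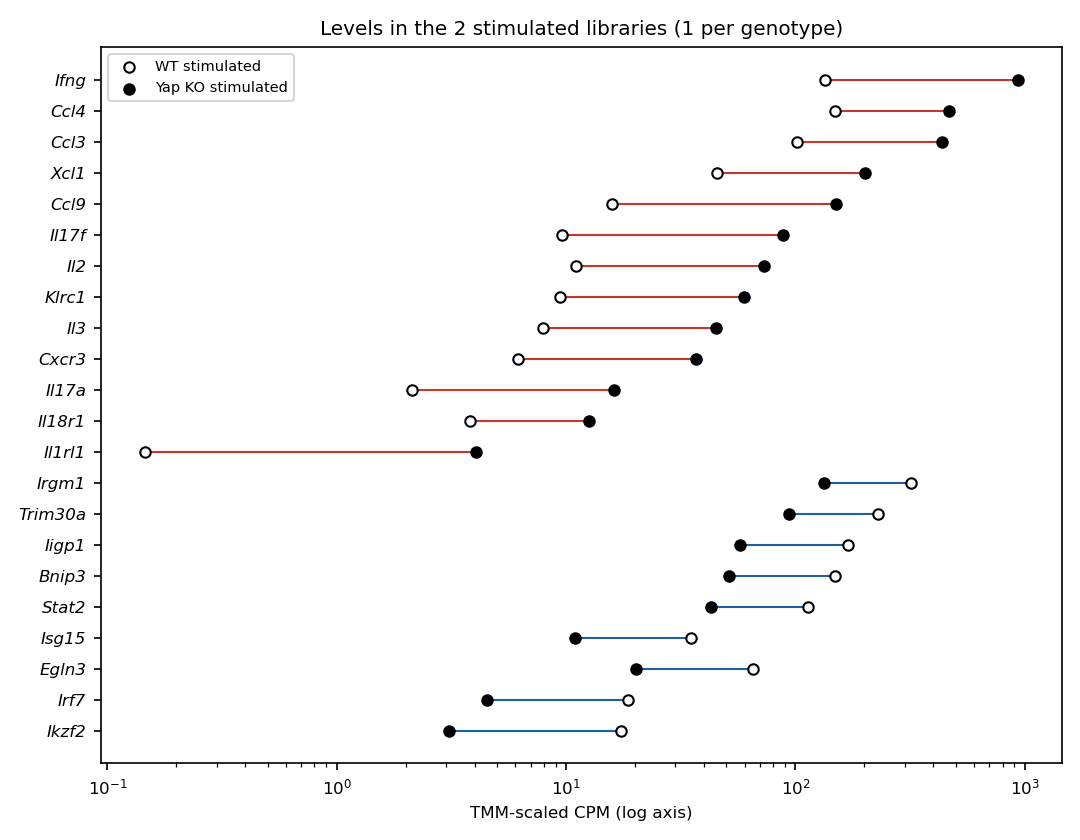
Scaled level in CPM (horizontal log axis) of 22 genes in the stimulated WT library (open circles) and the stimulated Yap KO library (filled circles), 1 library each. Red lines join genes higher in Yap KO, such as Ifng at 135 and 937 CPM, and blue lines genes lower in Yap KO, such as Irgm1 at 320 and 133 CPM.

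Cytotoxic granule genes did not share this pattern. Of 16 tested, 2 were called higher and 0 lower, with a median of 0.23 that became -0.00 without genes lying opposite another gene. Gzmb, the most heavily read granzyme, had 58285 reads in WT and 46981 in Yap KO cells, a ratio of -0.20 (-0.22 to -0.19). Prf1, which encodes perforin, stood at 65.8 and 137 CPM, a ratio of 1.06 (0.97 to 1.16), and Serpinb9b, a granzyme inhibitor, had 15 and 48 reads. Ifng and Gzmb, both products of effector CD8 T cells, thus differed in direction between these libraries.

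Among receptors of the interleukin 1 family, 4 were called higher. Il18r1 and Il18rap, the 2 chains of the interleukin 18 receptor, stood at 3.82 and 12.6 CPM (1.70, 1.35 to 2.11) and at 6.97 and 21.9 CPM (1.64, 1.37 to 1.93). Il1rl1, the interleukin 33 receptor ST2, had 3 reads in WT and 78 in Yap KO cells, a ratio of 4.08 (3.21 to 7.12). Il1r1 had 7 and 54 reads, a ratio of 2.73 (1.91 to 4.44). Il18r1, Il18rap and Il1r1 were also called higher before stimulation, at 1.23, 1.56 and 1.54, where Il1rl1 had 0 and 2 reads. Their neighbour Il1rl2, a receptor for interleukin 36, was not called, at -0.40 (-0.64 to -0.16). Il23r, the interleukin 23 receptor, had 55 and 137 reads and a ratio of 1.39 (0.96 to 1.90). These 5 genes were the higher calls among 40 tested cytokine receptor and signalling genes, whose median was -0.07, and 1 gene, Il12rb2, was lower. Il12rb2, the signalling chain of the interleukin 12 receptor, stood at 417 and 197 CPM, a ratio of -1.08 (-1.14 to -1.03), with 40% of its exon bases opposite Serbp1. The interleukin 2 receptor chains were not called, with Il2ra at 0.39 and Il2rb at -0.18.

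Genes listed for type 17 and γδ T cells had the highest median of the lists described here, 1.70 over 21 tested of 29, with 15 called higher and 0 lower. Some members, among them Tmem176a, Tcrg-C2 and Blk, reached the minimum of 20 reads only through the Yap KO library. The median and the count of calls can therefore lean to the high side. Il17a, Il17f, Il22, Il1r1, Il18r1 and Il23r, given above, are among the 15. Tmem176a and Tmem176b, a pair of neighbouring ion channel genes, had 3 and 48 and 14 and 138 reads in WT and Yap KO cells (3.41 and 3.23). Tcrg-C2, a constant segment of the T cell receptor γ chain, had 2 and 49 reads (3.75, 2.79 to 7.81), the Src-family kinase gene Blk 2 and 40 (3.47, 2.48 to 7.52), and Sox13, a γδ lineage factor, 20 and 74 (1.89, 1.27 to 2.79). Rora, a nuclear receptor of the list, was not called, at -0.76. These genes were of low level: the whole list summed to 105 CPM in the WT and 286 CPM in the Yap KO library. In the unstimulated libraries the list's median was 1.29 with 13 of 22 called higher, among them Il23r and Tcrg-C2, while Il17a and Il17f had at most 4 reads there.

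Killer cell lectin-like receptors, the NKG2 and Ly49 families of NK cells and some T cells, had 4 of 8 tested genes (23 listed) called higher and 0 lower. Klrc1, which encodes the inhibitory receptor NKG2A, had 195 and 1141 reads, 9.44 and 59.5 CPM, and a ratio of 2.64 (2.43 to 2.88). Klri2 had 36 and 186 reads (2.41, 1.95 to 3.03), Klrc2 5 and 35, and Klra3 1 and 22. Klrc2 and Klra3 reached the minimum of reads only through the Yap KO library, so the count of calls can lean to the high side. The median of the tested genes was 1.46, and it was lower with a smaller minimum of reads, as given further on. Klrk1 and Klrd1, which encode NKG2D and CD94, were not called, at 0.51 and 0.50. Summing Klrc1 with its close copy Klrc2 gave 2.65 (2.44 to 2.89). Klrc1 had nearly the same ratio before stimulation, 2.41 from 276 and 1713 reads.

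Among 27 tested homing receptor genes, 4 were called higher and 1 lower. Cxcr3, the receptor for interferon-induced chemokines, stood at 6.15 and 36.8 CPM, a ratio of 2.56 (2.31 to 2.87), and at 2.02 before stimulation. Cxcr6 had 241 and 495 reads (1.14, 0.92 to 1.37) and Ccr6 had 56 and 110 (1.05, 0.60 to 1.57). Cxcr4, the receptor for CXCL12, was the one called lower, with 115 and 31 reads and a ratio of -1.72 (-2.41 to -1.20). The lymph node receptor Ccr7 was not called, at 0.06. Of the 27 tested genes of this list 22 were called in neither direction. Activation and costimulatory receptors had 2 of 24 tested called higher and 2 lower, with a median of -0.13. Cd44, an adhesion receptor that memory T cells raise, stood at 82.0 and 183 CPM, a ratio of 1.16 (1.08 to 1.24), and Cd38, an ectoenzyme, at 1.42. Cd44 was also called higher before stimulation, at 1.73. The lower ones were Cd2, an adhesion receptor, at -1.11 and the tetraspanin Cd81 at -1.02.

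Transcription factors of effector and memory cells were nearly level after stimulation. Of 35 tested, 0 were called higher and 1 lower, with a median of -0.02, beside 3.2% higher and 4.09% lower over all tested genes. Tbx21, the T-bet gene that drives Ifng, had 2694 reads in WT and 2591 in Yap KO cells, a ratio of 0.05 (-0.03 to 0.13). Before stimulation it had 394 and 2550 reads, a ratio of 2.48 (2.33 to 2.64). The called gene was Ikzf2, which encodes Helios, with 359 and 59 reads and a ratio of -2.46 (-2.92 to -2.10). The regulatory T cell factor Foxp3 was not called, at -0.38 (-0.68 to -0.09), and its exons overlap another gene on the opposite strand by 18.7%. Inhibitory receptor genes were divided, with 3 of 15 tested called higher, Pdcd1lg2, Havcr2 and Nt5e, 0 lower and a median of -0.03. Pdcd1, which encodes PD-1, stood at 0.59, Ctla4 at -0.53 and Lag3 at -0.39.

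**Figure D3:**
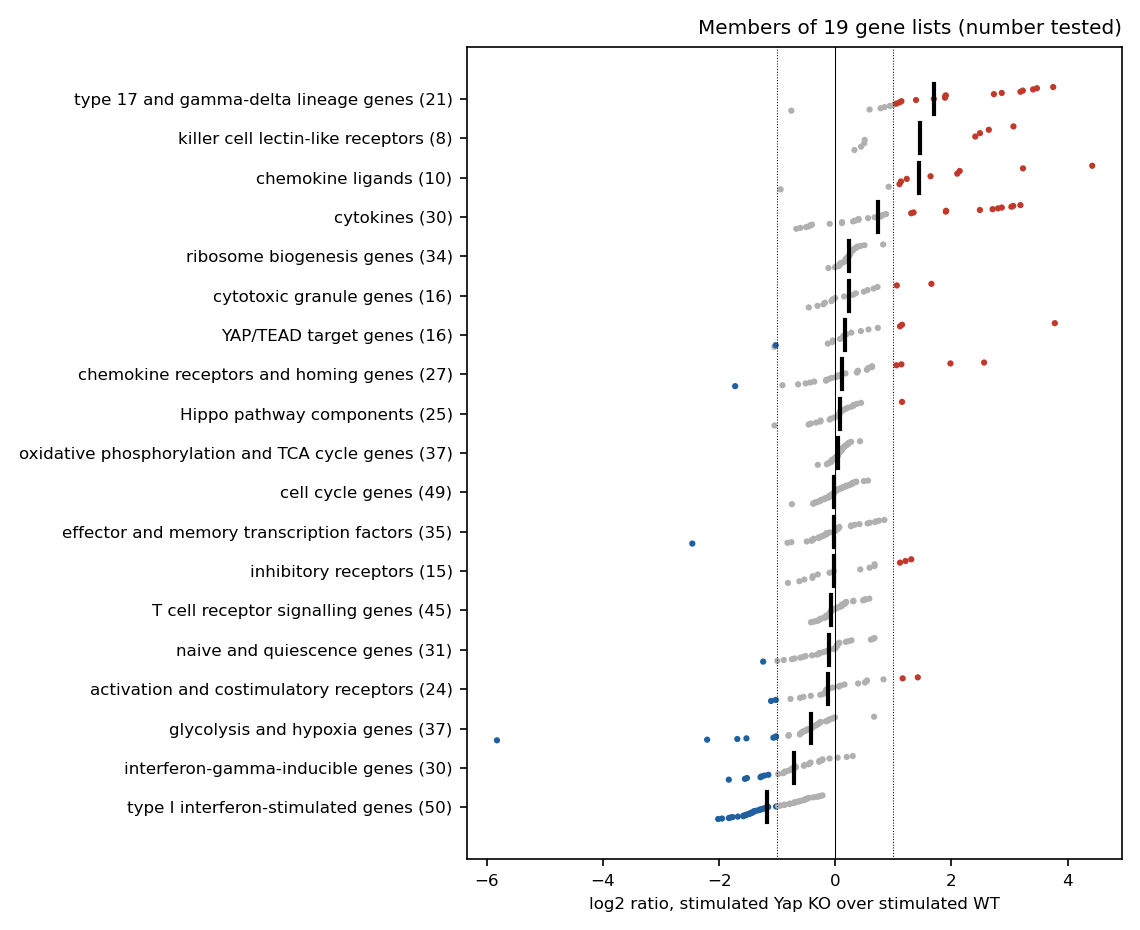
Log2 ratio of stimulated Yap KO over stimulated WT (horizontal axis) for the tested members of 19 gene lists, 1 point per gene and a black bar at each list's median, with genes called higher in red and lower in blue. Medians run from 1.70 for the type 17 and γδ list to -1.17 for the type I interferon list, and most lists lie close to 0.

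The list of type I interferon-stimulated genes had the lowest median of the lists described here, and held 27 of the 588 lower calls. All 50 tested of 51 genes listed for type I interferon had ratios below 0, 27 of them were called lower and 0 higher, and the median was -1.17. Summed, they stood at 2515 CPM in the WT library and at 1316 CPM in the Yap KO library. Before stimulation 15 of 51 were called lower, with a median of -0.62. Irf7, the factor that amplifies type I interferon responses, had 385 and 87 reads, a ratio of -2.02 (-2.39 to -1.70). Isg15, a ubiquitin-like protein, stood at 35.1 and 10.9 CPM, a ratio of -1.68 (-1.92 to -1.46). Eif2ak2, the double-stranded RNA kinase PKR, stood at 72.0 and 26.0 CPM (-1.47, -1.62 to -1.32), and Stat2, a subunit of the interferon-activated factor ISGF3, at 114 and 43.0 CPM (-1.41, -1.52 to -1.29). Trim30a and Usp18, 2 regulators of innate signalling, stood at 229 and 93.7 CPM (-1.29) and at 203 and 85.1 CPM (-1.25). Irf9, another ISGF3 subunit, had a smaller ratio, -0.54 (-0.64 to -0.44). The list straddled the 2-fold limit, with Sp100 just inside at -1.02 and Parp9 just outside at -0.98.

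Genes that interferon gamma induces were also low, although Ifng was high in the same library. Of 30 tested, 7 were called lower and 0 higher, the median was -0.71, and 27 had ratios below 0. The 7 were all guanosine triphosphatases of the IRG and GBP families, which attack vacuoles of intracellular pathogens. Irgm1 stood at 320 and 133 CPM, a ratio of -1.27 (-1.34 to -1.20), and Iigp1 at 169 and 57.4 CPM, a ratio of -1.56 (-1.66 to -1.46). Gbp10 stood at 25.3 and 7.04 CPM (-1.83, -2.13 to -1.57) and Gbp6 at 72.4 and 25.2 CPM (-1.52, -1.68 to -1.38). Tgtp1 and Tgtp2, near-identical copies, gave -1.26 (-1.34 to -1.17) when summed. The listed genes of antigen presentation were closer to 0, with H2-K1 at -0.10 and Psmb10 at 0.30, and the factor Irf1 stood at -0.54. In the unstimulated libraries the list was not shifted, with a median of 0.04, 2 called higher and 0 lower. Of the receptor chains, Ifngr1 stood at 0.24 (0.15 to 0.33) and Ifngr2 at -0.87 (-1.12 to -0.62), neither called.

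Promoter sequences are shown for genes of these lists because so many of their members were low together. The windows are RefSeq's (GRCm38.p6), from 250 bases before to 50 after each gene's annotated start, printed 5′ to 3′ on the gene's strand. The motif searched was GAAA, any 2 bases and GAAA again, on both strands, which is the core of the interferon-stimulated response element bound by ISGF3 and IRF factors, and capitals mark its matches. Isg15 (chr4:156200769-156201068, minus strand) has 3 overlapping matches, starting 78, 72 and 66 bases before the start. Stat2 (chr10:128270248-128270547, plus strand) has a match on the opposite strand, and Tgtp1 (chr11:48992197-48992496, minus strand) one that starts 77 bases before the start.
Isg15: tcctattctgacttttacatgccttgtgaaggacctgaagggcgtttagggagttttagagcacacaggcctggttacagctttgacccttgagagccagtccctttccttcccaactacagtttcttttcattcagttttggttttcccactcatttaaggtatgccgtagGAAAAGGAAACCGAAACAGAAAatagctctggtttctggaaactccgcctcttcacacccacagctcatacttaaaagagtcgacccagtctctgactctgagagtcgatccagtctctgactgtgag
Stat2: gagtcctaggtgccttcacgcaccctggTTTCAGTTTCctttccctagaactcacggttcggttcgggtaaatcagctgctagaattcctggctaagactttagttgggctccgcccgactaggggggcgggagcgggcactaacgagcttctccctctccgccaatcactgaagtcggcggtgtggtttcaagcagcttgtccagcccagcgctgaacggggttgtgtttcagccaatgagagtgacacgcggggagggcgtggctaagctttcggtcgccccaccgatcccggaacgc
Tgtp1: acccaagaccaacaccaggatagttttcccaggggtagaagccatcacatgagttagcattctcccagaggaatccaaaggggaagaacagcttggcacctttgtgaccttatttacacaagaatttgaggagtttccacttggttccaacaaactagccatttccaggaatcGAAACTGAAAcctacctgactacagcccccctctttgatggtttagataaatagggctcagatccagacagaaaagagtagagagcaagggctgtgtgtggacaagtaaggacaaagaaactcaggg

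The motif was found in 3.99% of the 27025 symbols with a window, and in 21 of the 38 tested type I interferon genes that have one (55.3%). Of these 21 genes 12 were called lower, with a median of -1.19. Of the 17 without a match 7 were called lower, with a median of -0.79. In the interferon gamma list 11 of 22 genes with a window held the motif (50%), and the 3 lower calls among those 22 were all in genes with a match. Outside these lists, 340 tested genes held it, and 18 of them were called lower (5.29%), against 2.92% of those without it. A match is only a run of letters in this window and shows no binding.

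Glycolytic and hypoxia-responsive genes were another list that lay to the low side. Of 37 tested, 7 were called lower, Eno1b among them, and 0 higher. Eno1b was as low before stimulation, and its copy Eno1 was not, as described further on. In the list 36 genes had ratios below 0, and the median was -0.42, against 0.12 before stimulation. Egln3, an oxygen-sensing prolyl hydroxylase induced by HIF, stood at 65.3 and 20.2 CPM, a ratio of -1.69 (-1.86 to -1.53). Bnip3, a mitophagy receptor, stood at 149 and 51.4 CPM, a ratio of -1.53 (-1.64 to -1.43), with 22.3% of its exon bases opposite Gm45507. Aldoc, an aldolase, had 231 and 45 reads, a ratio of -2.21 (-2.75 to -1.79). Ndrg1, Mxi1 and the glucose transporter Slc2a3 were called near the limit, at -1.02, -1.07 and -1.02. The abundant glycolytic enzymes differed much less: Ldha had 172387 and 134542 reads, a ratio of -0.25 (-0.26 to -0.24), Gapdh stood at -0.03 and Hk2 at -0.01. Hif1a, whose protein is set mainly by oxygen, had a ratio of -0.41. Egln3, Bnip3, Mxi1, Ndrg1 and Slc2a3 among the called genes are known HIF targets. The other 30 of the 37 tested genes were called in neither direction, and the part of HIF in these values was not tested.

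The window of Bnip3 (chr7:138909457-138909756, minus strand) is given because it holds the core of the hypoxia response element, ACGTG, on both strands, in overlapping matches shown in capitals.
Bnip3: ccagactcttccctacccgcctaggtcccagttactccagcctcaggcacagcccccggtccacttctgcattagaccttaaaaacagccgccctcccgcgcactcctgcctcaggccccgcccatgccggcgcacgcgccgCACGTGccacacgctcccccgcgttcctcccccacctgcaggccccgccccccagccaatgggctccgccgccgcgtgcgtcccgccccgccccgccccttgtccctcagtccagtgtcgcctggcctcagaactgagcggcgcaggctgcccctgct
ACGTG was present in 24 of 32 listed genes with a window (75%), against 29.8% of all tested genes and 21.8% of all symbols. The 4 lower calls among those 32 were all in genes with a match, which 75% of the listed genes have. The median ratio was -0.39 in listed genes with a match and -0.36 in those without. Outside the list, tested genes with the motif were called lower in 2.69% of cases and those without it in 3.39%, so the motif alone did not go with lower calls.

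Eno1b was the lowest well-read protein-coding gene, with 11514 reads in WT and 187 in Yap KO cells, 557 and 9.75 CPM, and a ratio of -5.82 (-6.05 to -5.63). It is an enolase gene on chromosome 18 with a near-identical copy, Eno1, and the ratio before stimulation was almost the same, -5.85. Eno1 had 45643 and 67352 reads, a ratio of 0.67 (0.65 to 0.68). Their sum had a ratio of 0.35 (0.33 to 0.36). How reads were shared between these copies by the authors' counting is not known, and the loss of one copy's reads was not one of total enolase reads.

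Several of the other leading genes have varied roles. Serpine2, a protease inhibitor, stood at 54.5 and 252 CPM (2.21, 2.11 to 2.30). Pcsk1, a prohormone convertase, had a ratio of 1.93, Paip1, which binds the poly(A)-binding protein, 1.89, and the elongation factor Ell2 1.87. On the low side, Sdc3, a heparan sulphate proteoglycan, stood at 20.8 and 4.85 CPM (-2.08, -2.44 to -1.78), and Xaf1, an interferon-responsive gene of apoptosis, had 620 and 163 reads (-1.81, -2.08 to -1.57). Rasa4, a Ras inhibitor, had -1.77, the sialyltransferase St6galnac2 -1.76, the receptor Treml2 -1.76, the carboxypeptidase Cpm -1.72, the glycogen-targeting subunit Ppp1r3b -1.70, the meiotic cohesin Stag3 -1.69 and Ttc39c -1.64. Paip1, Sdc3, St6galnac2, Cpm and Stag3 were called in the same direction before stimulation, whereas Serpine2, Pcsk1, Ell2, Rasa4, Treml2 and Ppp1r3b were not called there.

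Lists of processes central to activation held few calls. None of the 49 tested cell cycle genes was called, with a median of -0.02, and Mki67, a proliferation marker, stood at 0.24. None of the 45 T cell receptor signalling genes was called (median -0.07), nor any of 37 oxidative phosphorylation and TCA cycle genes (0.05), 33 cholesterol and fatty acid genes (-0.12) or 21 endoplasmic reticulum stress genes (0.03). Of the 34 ribosome biogenesis genes 32 had ratios above 0 but none was called, with a median of 0.23. Myc had 9192 and 8511 reads, a ratio of -0.00 (-0.05 to 0.04). Amino acid supply and ATF4 genes had 2 of 35 called lower, Vldlr and Nupr1, at a median of -0.13. Counts of 0 calls here state that no gene passed a 2-fold limit between 2 libraries, and smaller differences were present in many. Of all genes averaging at least 10 CPM, 0.751% were called higher and 0.842% lower. Of all genes with at least 20 reads, the minimum used for list members, 3.2% were called higher and 4.09% lower. The levels of the list members were not matched to either share, so 0 calls are not read as fewer than elsewhere.

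Survival and death genes had 6 of 35 tested called higher and 1 lower, with a median of 0.07. Phlda3 and Zmat3, both targets of p53, stood at 11.3 and 38.7 CPM (1.76, 1.56 to 1.99) and at 13.8 and 36.2 CPM (1.39, 1.19 to 1.60). Tnfrsf10b, a death receptor that p53 also induces, stood at 16.8 and 35.0 CPM (1.05, 0.87 to 1.25), and Cdkn1a, the p21 gene, was not called, at 0.56. Bcl2a1d, an antiapoptotic gene with near-identical copies, stood at 1.10, and the sum of Bcl2a1a, Bcl2a1d and Bcl2a1b at 0.97 (0.84 to 1.12). Fasl, given above, is the remaining well-read member.

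The cell types behind these values were looked at through marker lists. T cell genes were present at like levels, with Cd3e at 243 and 271 CPM, Cd8a at 268 and 253 CPM and Cd8b1 at 330 and 271 CPM in WT and Yap KO cells, while Cd4 had 1 and 0 reads. Of 18 T cell markers 1 was called, Cd2, at -1.11. γδ T cell markers summed to 26.3 and 47.3 CPM in the WT and Yap KO libraries, with 3 of 6 tested called higher. Trdc, the constant segment of the T cell receptor δ chain, had 462 and 647 reads, a ratio of 0.59 (0.42 to 0.77), and Tcrg-C1 had 0 and 1. NK cell markers summed to 125 and 223 CPM, with 2 of 5 tested called higher, Klri2 and Prf1, the latter also made by cytotoxic T cells. These sums were mostly Prf1, at 65.8 and 137 CPM, and Eomes, also listed for CD8 T cells, at 53.9 and 72.0 CPM. The NK-defining Ncr1 had 0 and 1 reads, Klrb1c 1 and 0 and Itga2 0 and 0. B cell markers had a median ratio of 0.42, with 14 of 17 tested above 0, 4 called higher and 2 lower. Their sums of 516 and 485 CPM were mostly Ighm, the IgM heavy chain, at 406 and 356 CPM. Ms4a1, which encodes CD20, had 43 and 109 reads (1.41). Neutrophil markers were at or near 0, at 0.436 and 0.469 CPM in sum with 8 of 12 at 0 reads in both. The part of γδ T, NK and B cells in the cytokine, type 17 and lectin receptor values above was not tested.

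A pair of transcripts of another kind also differed between the 2 stimulated libraries. Gm42418 and CT010467.1 lie over each other on chromosome 17 at a ribosomal RNA sequence and are annotated as a noncoding RNA and an rRNA. They had 23591 and 56233 reads and 19267 and 48821 reads in stimulated WT and Yap KO cells, ratios of 1.36 (1.34 to 1.38) and 1.45 (1.42 to 1.47). Before stimulation they stood at -0.09 and -0.14. Nuclear-retained RNAs had a median of -0.41 over 5 tested, with none called, and mitochondrially encoded genes one of -0.01 over 13. The part of RNA content or quality in other differences was not tested.

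The genotype difference had a different size in the 2 states for many of these genes. Of the 460 genes called higher after stimulation, 129 were also called higher before it (28.0% of the stimulated calls and 19.5% of the 661 unstimulated ones). Of the 588 called lower, 104 were also called lower before it (17.7% and 16.9%). A further 9 of the higher and 17 of the lower genes had the opposite call before stimulation. Over all 15163 genes tested in the unstimulated libraries, 4.36% were called higher and 4.05% lower. Genes with almost no unstimulated reads, such as Il17f with 4 and 2, could not be called there. Some genes were followed by the change of the ratio, among protein-coding genes averaging at least 10 CPM in either state whose intervals did not overlap between the states. Il17f, Il2, Ccl9, Serpine2 and Tnfsf4 were among the 8 largest increases, all 5 from under 20 reads per unstimulated library. St6galnac2 moved from -4.92 to -1.76, and Hspa1b, a heat-shock gene, from -1.48 to 0.86. In the other direction, Ddr1, a collagen receptor, moved from 5.70 (1 and 170 reads) to 1.65 (197 and 579 reads), Slc43a1, an amino acid transporter, from 3.03 to -0.74, and Tspan2 from 2.10 to -0.52. These differences between the states were not tested.

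**Figure D4:**
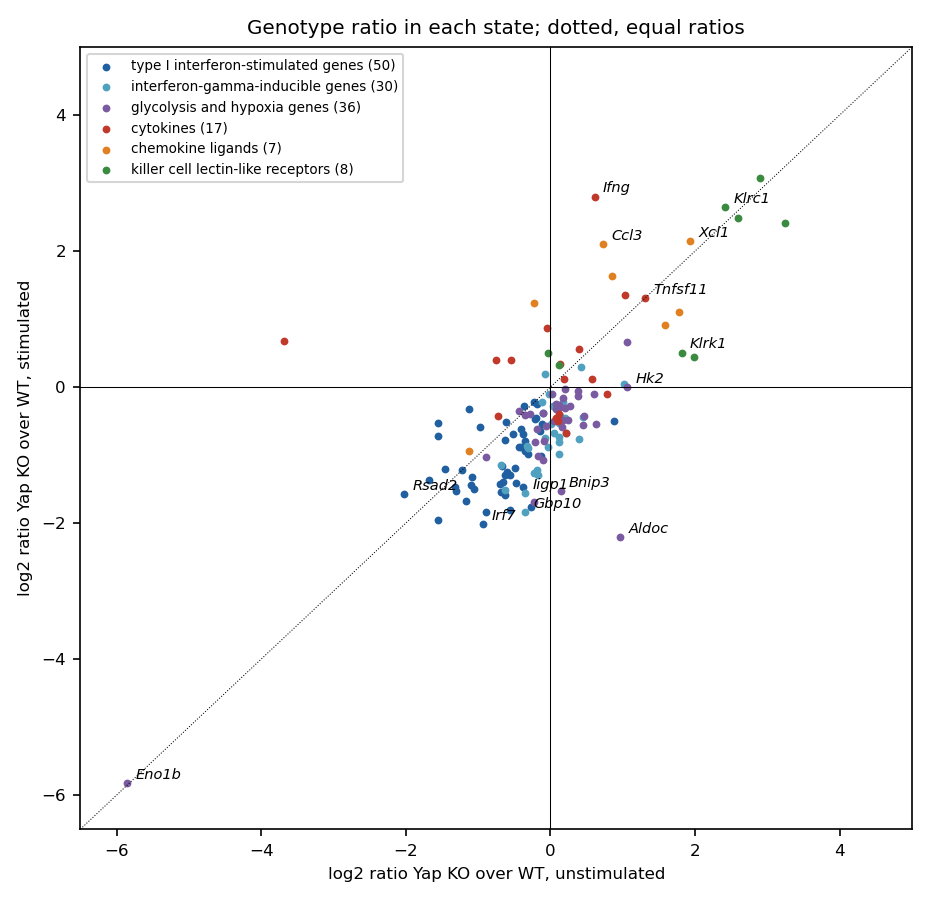
Log2 ratio of Yap KO over WT in the unstimulated libraries (horizontal axis) and in the stimulated libraries (vertical axis) for members of 6 gene lists with at least 20 reads in each state, with the number of genes in the legend and a dotted line of equal ratios. Type I interferon genes lie mostly left of and below 0, Ifng and Ccl3 lie above the line, and Klrc1 and Eno1b lie on or close to it.

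Several of the named genes are neighbours in the genome, and 9 loci were followed gene by gene, chosen after their values were seen (GENCODE M21 on GRCm38). In the interleukin 1 receptor locus (chromosome 1, 40074079 to 40551705), 4 of 5 tested genes were called higher. In the Ccl5 to Ccl4 cluster (chromosome 11, 83525778 to 83664683) all 4 tested chemokine genes were called higher, as were both genes at Il17a and Il17f (chromosome 1, 20730905 to 20790617). At Csf2 and Il3 (chromosome 11, 54247271 to 54267277) the noncoding Gm12223 between them was also called higher, with 8 and 135 reads. At Klrd1 to Klrc1 (chromosome 6, 129591782 to 129678973) 2 of 4 tested genes were called higher. The Gbp genes of chromosome 5 (105014150 to 105346472) had 4 of 6 tested called lower, while those of chromosome 3 (142493978 to 142638008) had 0 of 5 called. In the Ifit locus (chromosome 19, 34550694 to 34650009) 2 of 4 tested genes were called lower, and in the Gimap cluster (chromosome 6, 48647234 to 48770851) 2 of 12.

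**Figure D5:**
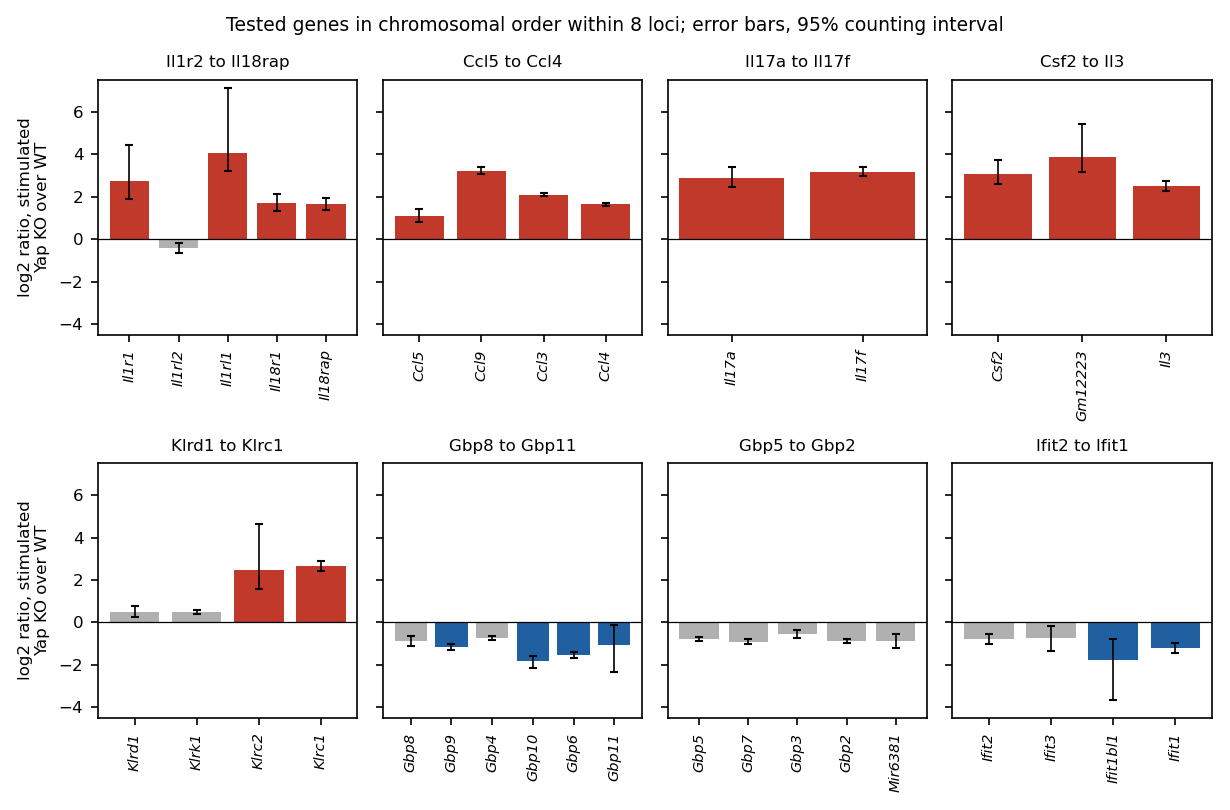
Log2 ratio of stimulated Yap KO over stimulated WT (vertical axis) for the tested genes of 8 loci in chromosomal order, with 95% counting intervals as error bars, genes called higher in red, called lower in blue and others in grey. Both genes of the Il17a locus and all 4 of the Ccl5 to Ccl4 cluster are called higher, and the Gbp genes of both clusters lie below 0.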

How the data were processed

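RNA was sequenced from 4 mouse libraries, 1 each of WT and Yap KO, unstimulated and stimulated, grouped by title. The authors deposited raw read counts per Ensembl gene, whole numbers without normalization, in the layout of htseq-count, with 5 summary entries that were left out. In the stimulated WT and Yap KO libraries, reads in no gene made up 48.93 and 48.31% of entries and reads in genes 38.35 and 39.67%. The submitters' processing notes name mm9 as genome build. Aligner, annotation and strand setting: not given in the sources used here. Of 50686 identifiers 50376 matched a symbol of GENCODE M21 (GRCm38), which supplied coordinates. Reads aligned in more than 1 place were not counted in genes, and genes on opposite strands may share reads.

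Counts were scaled with TMM factors of all 4 libraries (edgeR 4.0.16, R 4.3.3). Log2 ratios used a prior count of 2 and exact conditional binomial (Clopper-Pearson) intervals, computed with scipy 1.17.1 and tested on simulated data. These intervals hold for counting error alone, since duplicate reads of a molecule cannot be recognised in the tables. With 1 library a side no p-value was computed. A count of 0 allows up to 3 counts, 0.145 CPM in stimulated WT and 0.156 CPM in stimulated Yap KO cells. Named genes were the 15 highest and 15 lowest called protein-coding genes averaging at least 10 CPM, up to 8 members of each list with the largest ratio and at least 1 CPM besides its first member, the 8 largest rises and falls of the ratio between states (protein-coding, at least 10 CPM in either state, intervals not overlapping), the 8 most abundant called genes, and Yap1, Wwtr1 and the TEAD genes. Other named genes, the loci and the motifs were chosen after values were seen. The gene lists and the comparison itself were chosen with earlier results of these data known.

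Alternatives were scaling by total reads, DESeq2 1.42.0 size factors or TMM of the 2 stimulated libraries, a prior count of 0.5, minimums of 1 and 200 reads, leaving out genes with exons opposite another gene, and an interval that excludes a 2-fold ratio.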

Additional observations from a re-analysis of the deposited data

Results flagged for a closer look

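Ttc39c and H2-Ab1 were picked out because both had called ratios of opposite sign in the 2 states. Ttc39c had 613 WT and 182 Yap KO reads after stimulation, a ratio of -1.64 (-1.89 to -1.40), but 30 and 81 reads before it, a ratio of 1.17 (0.60 to 1.88). H2-Ab1, a chain of MHC class II, had 533 and 243 stimulated reads, a ratio of -1.02 (-1.25 to -0.81), and 619 and 1910 unstimulated reads, a ratio of 1.41 (1.28 to 1.55). H2-Aa, the partner chain, had 58 and 119 stimulated reads, a ratio of 1.12 (0.68 to 1.62), so the 2 chains lay on opposite sides of 0 in the same libraries. With 1 library per group, the difference between the states was not tested.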

How the results depend on the processing

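The counts of 460 genes higher and 588 lower depended on the minimum of reads and on the rule for a call. They were 712 and 895 with a minimum of 1 read, 100 and 124 with a minimum of 200 reads, and 153 and 176 where the interval had to exclude a 2-fold ratio; the first 2 settings tested 22060 and 9994 genes. Scaling by total reads gave 442 and 630, DESeq2 factors 457 and 596, TMM of the 2 stimulated libraries 446 and 621, and a prior count of 0.5 gave 485 and 620. Without genes opposite another gene, 329 and 435 of 9287 were called. Of 103 named called genes, Bcl2a1a and Lgals1 were no longer called with total reads and with TMM of 2 libraries, and 0 were lost with DESeq2 factors or the smaller prior count. Among 297 list medians under alternatives 31 moved by over 0.1; that of cytokines was 0.40 with at least 200 reads, that of lectin receptors 0.45 with at least 1, and that of type I interferon genes -0.98 with at least 200. No value called in the main setting changed sign. Genes under 20 reads, Yap1 included, lie below what this depth can compare. No paired analysis was possible because each group holds only replicate number 1, and for the same reason no library could be left out.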

Other observations

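Some genes outside the named lists were read almost only in one genotype, in both states, and were chosen here after their values were seen. BC018473, a noncoding gene on chromosome 11, had 2889 stimulated and 8843 unstimulated reads in WT cells, against 2 and 0 in Yap KO cells. Zfp990, a zinc finger gene on chromosome 4, had 303 and 432 reads in WT against 0 and 2. St6galnac1, a sialyltransferase gene on chromosome 11, had 82 and 363 against 0 and 0, at least 25.4-fold lower after stimulation. The ribosomal protein pseudogenes Rps3a3 and Rps3a2 had stimulated ratios of -5.04 (-5.44 to -4.74) and -3.19 (-3.49 to -2.95), and unstimulated ratios of -5.15 and -3.65. AI506816, a noncoding gene on chromosome 5, had 5592 WT and 705 Yap KO stimulated reads, a ratio of -2.88. In the other direction, the pseudogene Gm4864 had 0 WT and 87 Yap KO stimulated reads, at least 31.2-fold higher, and Rab6b, a vesicle transport gene, had 16 and 202. H2-T10, a nonclassical MHC gene, had 1893 and 341 stimulated reads, a ratio of -2.36 (-2.54 to -2.20), and H60b, a ligand of NKG2D, 141 and 3. Whether the 2 cell sources shared a strain background is not stated in the labels, and the part of sequence differences between them was not tested.

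Genes with a difference before stimulation and little after it included, besides Tbx21, Il2rb (1.69 and -0.18) and the growth factor coreceptor gene Nrp1 (2.35 and -0.17), chosen after their values were seen. Spry1, an inhibitor of receptor tyrosine kinase signalling, went from -2.44 to -0.12. Of the 18 tested T cell receptor V segments 1 was called higher and 4 lower in the stimulated libraries.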
